A study of Mus musculus with 6 samples.

Results

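The genes whose proteins pass a signal from Toll-like receptors into the cell were compared between macrophages grown from smoke-exposed and from air-exposed mice. The set was chosen by name and holds 10 genes of the 19386 listed in the authors' gene table: the co-receptors Cd14 and Ly96, the adaptors Myd88, Tirap, Ticam1 and Ticam2, and the kinase family Irak1, Irak2, Irak3 and Irak4. All 10 were listed once and all 10 carried an adjusted p-value, as did 12082 genes in all. Splicing events were added where their coordinates lay within a member and on its strand, which held for 9 of 10376 events.

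The cells were bone marrow-derived macrophages of wild-type C57BL/6 mice, made by growing marrow cells freed of erythrocytes in medium with supernatant of L929 cells, which supplies the growth factor for macrophages, and collected on day 11. The 3 libraries of one group came from mice exposed to cigarette smoke and the 3 of the other from mice kept in room air. Every group therefore shares the strain, the genotype and the culture, and the exposure ended with the animal, since smoke was not part of the culture as the labels describe it. The labels used here give no age, sex, dose or length of exposure, and although the marrow of each mouse is said to have been divided between immediate collection and culture, they do not say that each library is a separate mouse, so the p-values measure the spread between libraries. The authors' gene table was made over 24 libraries, of which 18 are not analysed here, and its standard errors and p-values may rest on a spread estimated over those as well.

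Toll-like receptors sense microbial molecules at the cell surface and in endosomes. CD14 hands lipopolysaccharide to the complex of TLR4 with MD-2, the protein encoded by Ly96. After ligand binding, MyD88, brought to the membrane by TIRAP, gathers IRAK4 with IRAK1 or IRAK2 into a signalling complex that leads to TRAF6, TAK1 and NF-kappaB. The other branch of TLR4, and the only one of TLR3, uses TRIF (Ticam1), for which TRAM (Ticam2) is the bridge to TLR4, and leads to interferon genes as well. IRAK3, also called IRAK-M, is known mainly as a brake on this pathway in macrophages, and Irak2 is itself induced by inflammatory stimuli.

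Irak2 was the only member called different between the groups, and it rose. In the authors' deposited table its group mean of normalized counts was 239.5 in room air, and in cigarette smoke it was 340.0. The fold change was 1.43, with a 95% interval of 1.14 to 1.79 computed from the standard error of the authors' deposited table. On the log2 scale this is 0.52 (SE 0.17) and the authors' deposited table gave it an adjusted p of 0.0348 (DESeq2). The adjusted p of Irak2 was 0.0549 when all genes with a p-value were adjusted together, without the filter on low counts, and 0.254 with a trend in GC content and length removed, as described further on. The other 9 members did not pass an adjusted p of 0.05 there. The count of 1 in 10 stands beside 7.69% of all genes tested (929 of 12082) called in either direction and 4.15% called higher, so it is near the background. The median log2 fold change was -0.0024 over the 10 members and -0.0029 over all genes tested. A positive value was listed for 5 of the 10, among them Tirap, whose group means went slightly the other way (133.2 and 132.4 normalized counts).

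**Figure D1:**
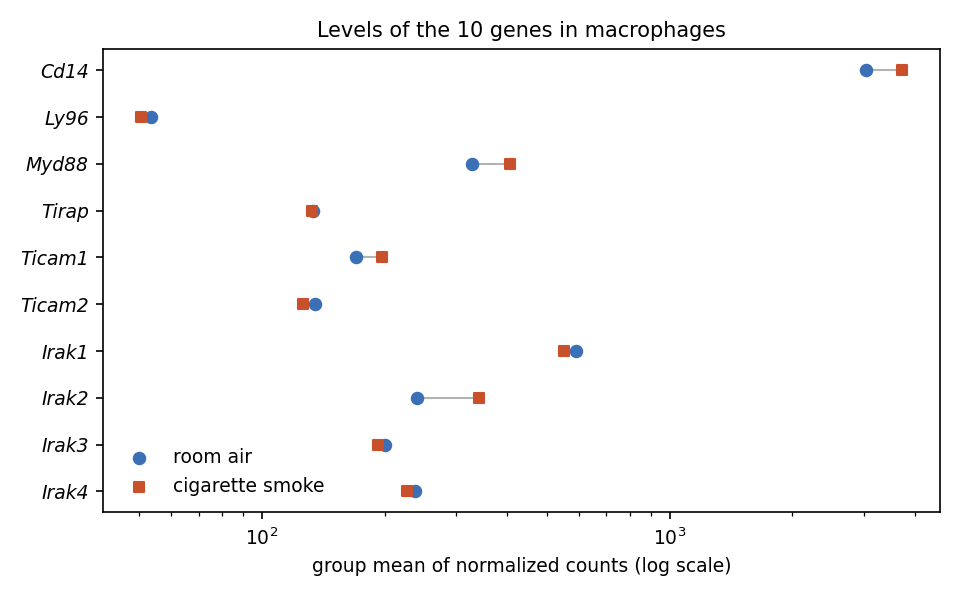
Group means of normalized counts of the 10 genes on a log axis, with circles for room air and squares for cigarette smoke, as given in the authors' deposited table, which holds no value per library. The gap is widest for Irak2, from 239.5 to 340.0, and the symbols of Tirap lie on each other at 133.2 and 132.4.

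Size-factor-normalized counts were deposited as group means, so the spread of expression over the 3 libraries of a group is known only through the standard errors. A difference in the share of a cell type and a difference in the RNA per cell cannot be told apart in such bulk samples. As a check of the cells, all 10 macrophage markers looked for were present, among them Csf1r, Adgre1 and Cd68. Their group means summed to 55290 normalized counts in room air and 55550 in smoke, of which Lyz2 gave 23170 and 24770. The near-equal sums do not mean that each marker stayed level. Mrc1 went from 3601 to 2196 (DESeq2 adjusted p 0.0837) and Fcgr1 from 536.6 to 761.6 (DESeq2 adjusted p 0.2185). Of the 10 markers, 1 (Spi1) was called higher, beside 4.15% of all genes tested. B cell markers (4 of 6 listed) summed to 145.6 normalized counts in room air and 122.6 in smoke, of which Ighm gave 139.3 and 118.5. Neutrophil markers (4 of 10 listed) summed to 0.322 and 0.508 normalized counts and dendritic cell markers (3 of 6 listed) to 1.29 and 1.02. Erythroid markers (1 of 5 listed) summed to 0 and 0.508. No marker of T and NK cells or of mast cells and basophils was listed. All 6 stromal markers were listed and 0 were called, and they summed to 45.6 normalized counts in room air and 10.6 in smoke; the part of these and of the B cell markers in the differences below was not tested.

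The co-receptors come first in the pathway. Cd14, on chromosome 18 (36725067 to 36726798, minus strand, GRCm38, annotation GENCODE M21), was by far the most abundant member and stood at the 98.8th percentile of all genes tested in room air. Its mean was 3027 normalized counts in room air and 3712 in smoke in the authors' deposited table. For Cd14 a log2 value of 0.29 (SE 0.23, adjusted p 0.485) was listed there, which did not pass, and the 95% interval reached from 0.895-fold to 1.68-fold. Ly96, on chromosome 1 (16688051 to 16709611, plus strand), was at the other end, with 53.5 and 50.6 normalized counts in the authors' deposited table, at the 26.9th percentile in room air. For Ly96 the 95% interval of the fold change was 0.632 to 1.48, and its adjusted p in the authors' deposited table was 0.958. Neither co-receptor passed the test, and their counts, which are not corrected for length, were the highest and the lowest of the set.

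Per kilobase of the longest annotated transcript, Cd14 had 1845 normalized counts in room air and Ly96 had 80.3, a level among those of the kinases. Irak1 followed Cd14 with 154 per kilobase and Myd88 with 134. Below Ly96 came Irak2 at 74.9, Irak4 at 69.0 and Irak3 at 64.6. The adaptors other than Myd88 had the lowest levels per kilobase in room air, at 56.7 for Ticam1, 32.2 for Ticam2 and 29.0 for Tirap. The order did not follow the branches, since Tirap, which serves MyD88, was the lowest. In smoke Myd88 (165 per kilobase) stood above Irak1 (144), and Irak2 (106) above Ly96 (76.0). Since no level of a single library was used, neighbours in this order cannot be separated by their spread, and with the length of the longest protein-coding transcript Myd88 (168 per kilobase) already stood above Irak1 in room air.

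Among the adaptors, Myd88 had the lowest p-value. Myd88 lies on chromosome 9 (119335934 to 119341411, minus strand), and its mean was 328.5 normalized counts in room air and 406.3 in smoke in the authors' deposited table. For Myd88 a log2 value of 0.32 (SE 0.13) was listed there, a 1.25-fold difference with a 95% interval of 0.06 to 0.58 on the log2 scale, at an unadjusted p of 0.0163 and an adjusted p of 0.116 (DESeq2). It did not pass over all genes, and 22.8% of the genes tested had an unadjusted p under 0.05. The gene shares 290 exon bases with Acaa1a on the opposite strand, whose own value on the log2 scale in the authors' deposited table was 0.30 (SE 0.16). The libraries were directional, but whether reads were counted by strand is not given in the sources used here, so the values of Myd88 and Acaa1a may share reads. The same holds for Tirap, which shares 446 exon bases with Gm39318 and 39 with Srpr, for Irak4, which shares 395 with Twf1, and for Irak3, which shares 192 with Tmbim4 and 28 with Gm47009, all on the opposite strand. Irak1 shares 71 and 70 bases with the miRNA genes Mir5132 and Mir718 on its own strand.

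Ticam1, which encodes TRIF and lies on chromosome 17 (56269319 to 56276786, minus strand), had 169.7 normalized counts in room air and 196.8 in smoke in the authors' deposited table. Its 95% interval reached from 0.914-fold to 1.49-fold, and the authors' deposited table gave it an adjusted p of 0.499. Tirap (chromosome 9, 35184551 to 35200291, minus strand) had 133.2 and 132.4 normalized counts, with an adjusted p-value of 0.935, in the authors' deposited table. The interval of Tirap, 0.806-fold to 1.31-fold, lay on both sides of 1. Ticam2 (chromosome 18, 46557291 to 46574533, minus strand) had 135.2 and 125.9 normalized counts in the authors' deposited table, with the widest standard error among the adaptors (0.31) and an adjusted p of 0.932. Ticam2 shares 838 exon bases with Tmed7 on the same strand, and Tmed7 had 1114 and 986.4 normalized counts in the authors' deposited table, so the value of Ticam2 is uncertain. In all, 0 of 4 adaptors were called in the authors' DESeq2 comparison, beside 7.69% of all genes tested. There 1 of them (Myd88) had an unadjusted p under 0.05, beside 22.8% of all genes tested. A positive log2 fold change was listed for 3 of 4, among them Tirap, whose group means went slightly the other way.

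The 4 IRAKs had a median standard error of 0.15 on the log2 scale, where all genes tested had 0.21. Irak1 (chromosome X, 74013914 to 74023918, minus strand), a kinase of the complex that is modified and lost after stimulation, had 589.2 normalized counts in room air and 552.4 in smoke in the authors' deposited table. It had the smallest standard error of the set, 0.11 on the log2 scale, and its 95% interval of 0.820-fold to 1.09-fold was the narrowest (adjusted p 0.714 in the authors' deposited table). Irak4 (chromosome 15, 94543643 to 94581815, plus strand), the kinase that starts the cascade, had 237.2 and 227.2 normalized counts in the authors' deposited table, with a 95% interval of 0.807-fold to 1.17-fold and an adjusted p of 0.897. Irak3 (chromosome 10, 120141648 to 120202130, minus strand) had 200.2 and 192.6 normalized counts in the authors' deposited table, with a 95% interval of 0.752-fold to 1.21-fold and an adjusted p of 0.876. Irak2 (chromosome 6, 113638467 to 113695026, plus strand) was thus the one kinase with a positive log2 fold change, while Irak1, Irak3 and Irak4 had values from -0.08 to -0.04. The interval of Irak2 (0.19 to 0.84 on the log2 scale) overlapped those of Irak3 (-0.41 to 0.28) and Irak4 (-0.31 to 0.22) and not that of Irak1 (-0.29 to 0.13), and a difference between genes was not tested. Irak2 shares no exon base with another gene on its strand in GENCODE M21, and 196 with Gm43963 on the opposite strand.

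**Figure D2:**
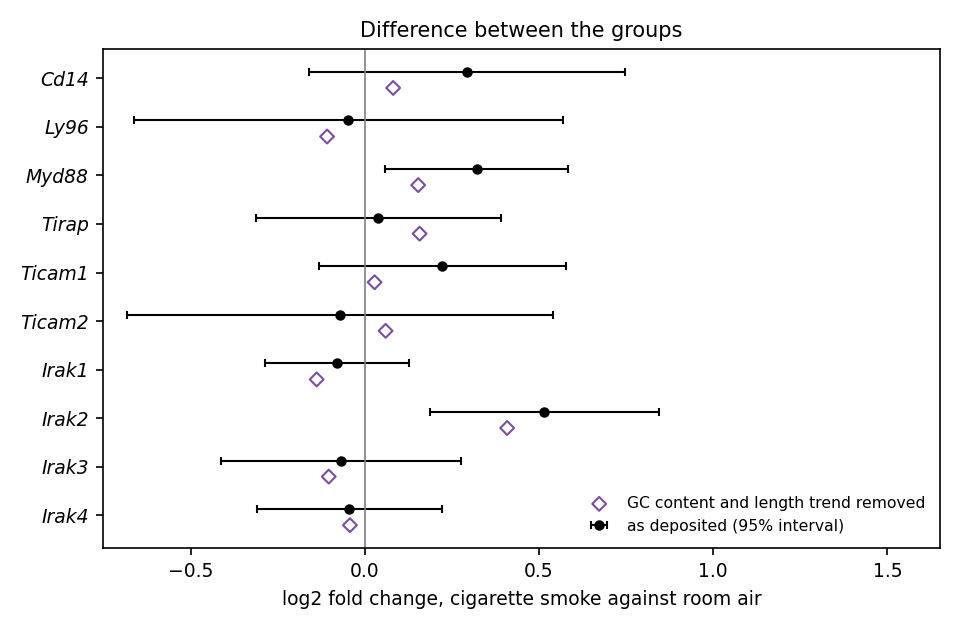
Log2 fold change of cigarette smoke against room air for the 10 genes; filled circles are the values of the authors' deposited table with 95% intervals computed from its standard errors, and open diamonds are the values after a trend in transcript GC content and length was removed. The intervals of Irak2 and Myd88 lie above 0, and both diamonds are closer to 0 than the circles.

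Fold changes over all genes moved with the GC content and the length of transcripts. Spearman's rho with the log2 fold change was 0.483 for GC content and -0.448 for length, across 12071 genes, and genes do not count as independent replicates. The members with the highest values are also among the more GC-rich: Irak2 has 53.1% GC in its longest transcript, Myd88 53.5% and Cd14 52.5%, while Ly96 has 41.1% and Ticam2 45.1%. The median log2 fold change of the 1572 genes with a GC content near that of Irak2 (52.5% to 55%) was 0.13. Irak1, at 52.8% GC, had a value of -0.08 in the same range. With the trend removed, the log2 fold change of Irak2 was 0.41 with an adjusted p of 0.254, that of Myd88 0.15 and that of Cd14 0.08, and none of the 10 members was called, beside 1.28% of all genes (154 of 12071). Irak2 had the largest value of the 10 with the trend removed as well.

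**Figure D3:**
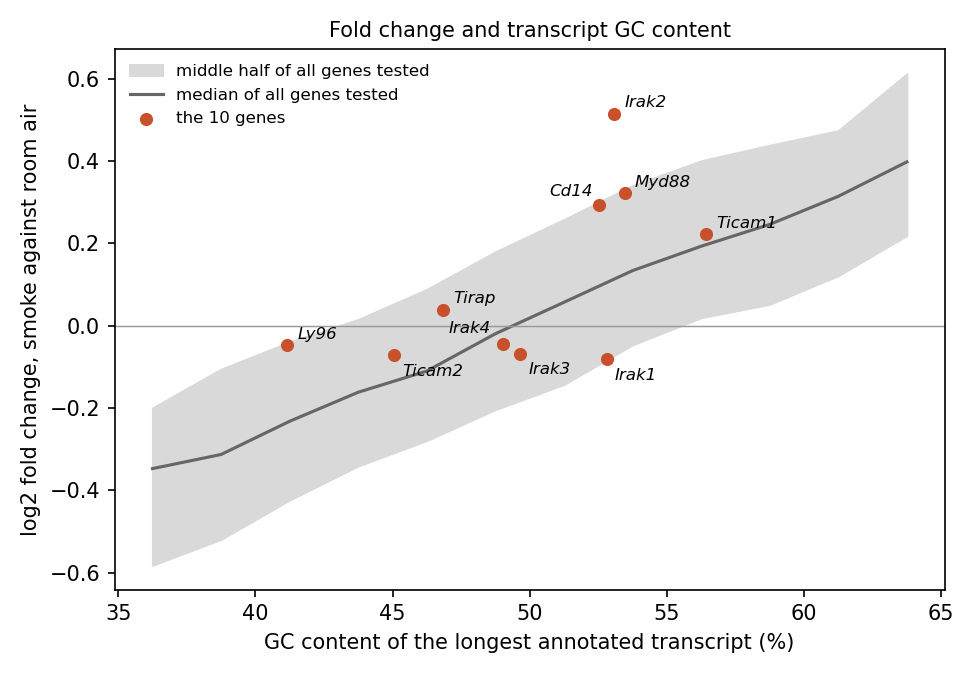
Log2 fold change of smoke against room air, as deposited, against the GC content of the longest annotated transcript in percent; the line and the band are the median and the interquartile range of all genes tested in steps of 2.5 percentage points, and the points are the 10 genes. That line rises from -0.35 to 0.40, and Irak2 lies above the band.

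Further members of the pathway were taken from a list of 70 genes in 7 roles, of which 69 were listed and 65 tested. By the authors' adjusted p under 0.05 in their deposited table, 3 of the 65 were higher and 2 lower, beside 4.15% and 3.53% of all genes tested, and the median log2 fold change of the list was -0.10. Of the 12 inhibitors tested 2 rose, beside the 4.15% above. Counts this small within a role describe single genes only. Nfkbia, the inhibitor that holds NF-kappaB in the cytoplasm and a target of it, rose in the authors' deposited table from 256.5 to 374.9 normalized counts (log2 fold change 0.56, SE 0.15, adjusted p 0.00967), and had 0.34 with the trend removed (adjusted p 0.356). Socs1, an inhibitor of cytokine signalling, rose in the authors' deposited table from 2.88 to 9.84 normalized counts, at a low level (log2 fold change 1.67, SE 0.57, adjusted p 0.0458), and had 1.42 with the trend removed (adjusted p 0.232). Tnfaip3, which encodes the ubiquitin-editing enzyme A20, had 84.7 and 140.5 normalized counts in the authors' deposited table and did not pass (adjusted p 0.194). Tmed7 had the highest counts of this role and the authors' deposited table gave it an adjusted p of 0.469.

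Among the 10 ubiquitin ligases and partners, 1 rose, beside 4.15% of all genes tested. Ube2v1, a partner of the enzyme that builds the ubiquitin chains on TRAF6, went in the authors' deposited table from 443.3 to 592.5 normalized counts (log2 fold change 0.42, SE 0.11, adjusted p 0.00334). Its value with the GC content and length trend removed was 0.19 (adjusted p 0.519). Among the 14 kinases and partners, 1 fell, beside 3.53% of all genes tested. Map3k7, which encodes TAK1, went in the authors' deposited table from 497.7 to 404.6 normalized counts (log2 fold change -0.31, SE 0.10, adjusted p 0.0369). With the trend removed Map3k7 had -0.10 (adjusted p 0.820). Of these 14, Pik3ap1 had the highest counts and Tank the largest log2 fold change, -0.39, to which the authors' deposited table gave an adjusted p of 0.126. In this role 2 of 14 values were positive, beside 5999 of 12082 over all genes tested, and the median moved from -0.19 to -0.09 with the trend removed.

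Of the 10 Toll-like receptors tested, 1 fell, beside 3.53% of all genes tested, and 1 had a positive value, beside 5999 among the 12082 genes tested. The transcripts of these receptors had a median GC content of 44.4%, where all genes tested had 49.4%. Their median log2 fold change moved from -0.39 to -0.22 with the trend removed. Tlr8, an endosomal receptor for RNA, fell in the authors' deposited table from 867.0 to 497.8 normalized counts (log2 fold change -0.79, SE 0.24, adjusted p 0.0212), and had -0.61 with the trend removed (adjusted p 0.219). Tlr7, with the highest counts of the receptors (2944 and 1924 normalized counts), did not pass in the authors' deposited table (adjusted p 0.128). Tlr4, which CD14 and MD-2 serve, had 1009 normalized counts in room air and 748.9 in smoke there, and its log2 fold change of -0.42 (SE 0.20) in the authors' deposited table did not pass (adjusted p 0.179). For TLR4 and its co-receptors no member of the complex passed the test, and the values pointed in different directions, with Cd14 at 0.29, Ly96 at -0.05 and Tlr4 at -0.42 on the log2 scale.

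None of the 7 accessory proteins tested, the 8 transcription factors or the 4 receptors of the interleukin 1 family was called by DESeq2 in the authors' deposited table. Over all genes tested 7.69% were called in either direction. Hsp90b1 had the highest counts of the accessory proteins (4064 and 3158 normalized counts) and Cd36 the largest difference in the authors' deposited table (log2 fold change -0.85, SE 0.42, adjusted p 0.204). Irf7 had the highest counts of the transcription factors and Fos the largest difference in the authors' deposited table (log2 fold change -0.57, SE 0.45, adjusted p 0.481). At an unadjusted p under 0.05 there were 3 of the 7 accessory proteins, 2 of the 8 transcription factors and 0 of the 4 receptors of the interleukin 1 family, beside 22.8% of all genes tested. Of these receptors Il18rap had the highest counts and Il1rap the largest value (-0.23) among genes averaging 50 normalized counts or more. With the GC content and length trend removed, 0 of the 65 genes were called.

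**Figure D4:**
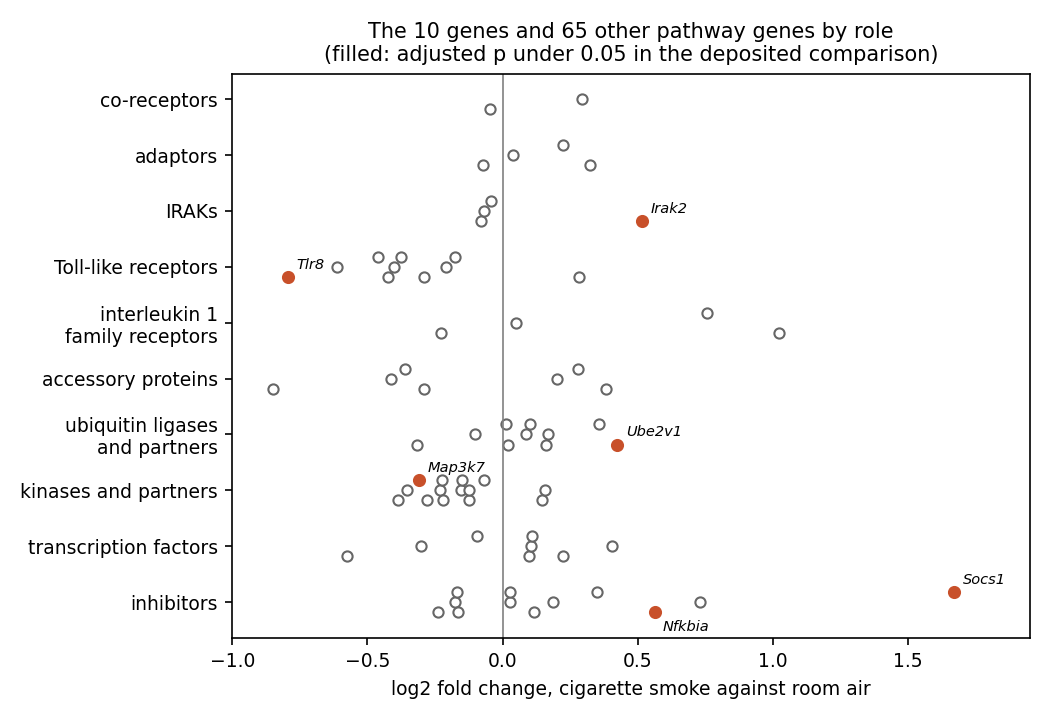
Log2 fold change of smoke against room air in the authors' deposited table, with 1 point per gene, for the 10 genes in 3 roles and 65 other pathway genes in 7 roles; filled and named points have an adjusted p under 0.05 there, and the vertical offset within a row only separates points. The point of Irak2 is at 0.52 and those of the other IRAKs are between -0.08 and -0.04, and 9 of the 10 Toll-like receptors lie below 0.

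For splicing, JuncBASE, which scores alternative splicing from reads that cross exon junctions, gave a percent inclusion per event and library. The read counts behind these percentages are not known. Values such as 12.5%, 7.69% and 90.91% may rest on few reads, so differences between libraries may come down to single reads. This was not tested. The 9 events lay in Irak1 (7), Irak2 (1) and Irak4 (1), and the other 7 members had none. No cassette exon was among them. The events are not independent: both acceptors of a close pair in Irak1 were scored in turn, and a longer exon of Irak1 was scored both from junction reads and with exon reads. Retention of the 223-base intron of Irak1 was scored against the same junction as that longer exon. How far reads of the longer exon enter the retention value was not tested. Smoke replicate 1 had no value in 6 of the 9 events and in 4169 of all 10376, against at most 398 in any other library.

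The alternative exon ends of the Irak1 tandem acceptor and of Irak2 are shown as spliced sequence on the message strand, from GENCODE M21 transcripts on GRCm38. They are differences between protein-coding forms that were scored. The exon end where Irak1 chose between a 168-base and a 300-base intron is not shown. Capitals mark the bases that only the longer form keeps, with 21 bases of exon on either side. All of the stretches shown are annotated as coding, have a length divisible by 3 and end in AG, the bases at which the intron of the shorter form ends.
Irak1 tandem acceptor, chrX:74022662-74022664, minus strand: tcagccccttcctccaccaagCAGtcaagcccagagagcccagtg
Irak1 tandem acceptor, shorter form: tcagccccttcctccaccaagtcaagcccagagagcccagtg
Irak2 acceptor shift, chr6:113690783-113690812, plus strand: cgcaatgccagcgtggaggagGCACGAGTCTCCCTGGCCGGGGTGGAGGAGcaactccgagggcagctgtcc
Irak2 acceptor shift, shorter form: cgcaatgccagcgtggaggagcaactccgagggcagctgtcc

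An intron of Irak1 is shown whole because it was scored in 3 of the events, 1 time as retained and 2 times as cut short by an inner acceptor. The intron, chrX:74022250-74022472 on the minus strand, has 223 bases. Its last 132 bases, in capitals, are kept as coding exon when the inner acceptor is used, and the 91 bases before them end in AG. The 21 bases of exon on either side are included.
Irak1 intron: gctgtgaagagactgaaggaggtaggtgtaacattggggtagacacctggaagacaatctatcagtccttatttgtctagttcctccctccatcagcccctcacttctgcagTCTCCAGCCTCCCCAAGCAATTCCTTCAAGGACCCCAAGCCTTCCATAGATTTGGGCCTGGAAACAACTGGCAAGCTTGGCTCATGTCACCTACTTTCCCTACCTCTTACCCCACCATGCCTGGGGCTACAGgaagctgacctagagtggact

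No event of a member passed limma at an adjusted p of 0.05. Among the 9 events, 1 had an unadjusted p under 0.05 in limma, where 10.8% of all 10376 events did, and the adjusted p-values lay between 0.456 and 0.675. Over all events limma called 0 of 10376 (0%). The authors' deposited table of these events had no corrected p under 0.05 either, and among the members no unadjusted p under 0.05 (lowest 0.0723), beside 4.15% of all events. With 3 libraries against 3, as in 3 of the 9 events, an exact permutation test of a single event cannot go below p = 0.1. The 6 events with fewer values allow no lower p. The values of the groups did not overlap in 5 of the 9 events, beside 22.8% of all events and 21.7% of those with 3 room air and 2 smoke values, and since these 5 come from 4 places in 2 genes, this count is a description only.

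The tandem acceptor of Irak1 was the most evenly used choice. The upstream acceptor, which adds the 3 bases CAG, took 71.4%, 63.4% and 64.3% in the room air libraries, in the order of their numbers, and 75% and 73.2% in smoke replicates 2 and 3. Both smoke values lay above all room air values, with group means of 66.4% ± 4.40 (SD, 3 libraries) and 74.1% ± 1.29 (SD, 2 libraries). The difference of 7.71 percentage points had an adjusted p of 0.666 in limma on log2 odds. On untransformed percentages its 95% interval was 0.192 to 15.2 percentage points, with an unadjusted p of 0.0453 and an adjusted p of 0.414 in limma. The downstream acceptor took 28.6%, 34.1% and 35.7% in room air and 25% and 26.8% in smoke, and a further acceptor that is not in the annotation took the remaining 2.44% in room air replicate 2 and 0% in the other 4 libraries with a value. Both forms with and without the 3 bases were thus present in every library with a value, with the longer one in the majority.

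In Irak2 the longer form of the exon, with the 30 bases shown above (10 codons), was the main one. Its inclusion was 100%, 94.1% and 92.3% in the room air libraries, in the order of their numbers, and 91.7% and 87.5% in smoke replicates 2 and 3. The lower room air value and the higher smoke value were less than 1 percentage point apart. The group means were 95.5% ± 4.02 (SD, 3 libraries) and 89.6% ± 2.95 (SD, 2 libraries), a difference of -5.89 percentage points with an adjusted p of 0.563 in limma. On the log2 odds scale the value of -1.61 became -0.59 without room air replicate 1. The change in the total message of Irak2 and its form are separate measures, and the second did not pass.

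The 223-base intron of Irak1 had a value in all 6 libraries. Its retention was 9.52%, 11.1% and 12.5% in the room air libraries, and 0%, 7.14% and 7.69% in the smoke libraries, each in the order of replicates 1, 2 and 3. All smoke values lay below all room air values, with group means of 11.0% ± 1.49 and 4.94% ± 4.29 (SD, 3 libraries each). The adjusted p in limma was 0.525. Another Irak1 intron, of 221 bases (chrX:74021964-74022184), was retained at 5.88%, 11.1% and 9.30% in room air and at 0% and 4.08% in smoke replicates 2 and 3. It had the lowest p of the set in limma (unadjusted 0.0479, adjusted 0.456), with a difference of -6.72 percentage points. On the log2 odds scale its value of -2.18 became -0.98 without smoke replicate 2 and -3.38 without smoke replicate 3, each of which leaves 1 smoke library that is assumed to vary like the others, and neither passed.

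The values over all introns are given beside these, with no test of the difference. In limma on retained introns alone, 0 of 3305 passed (lowest adjusted p 0.104), with 658 at an unadjusted p under 0.05. In the 1992 introns scored for retention in all 6 libraries, mean retention was 15.7% ± 0.978 in room air and 11.4% ± 1.28 in smoke (SD, 3 libraries each), a difference of -4.23 percentage points, beside -6.10 for the 223-base intron of Irak1, which became -3.63 without smoke replicate 1. Over the 3 introns of members in the 5 libraries other than smoke replicate 1, mean retention was 5.13%, 11.0% and 7.27% in the room air libraries and 2.38% and 3.92% in smoke replicates 2 and 3. The third of these introns, in Irak4 (chr15:94556692-94558249, 1558 bases), was retained at 10.7% in room air replicate 2 and at 0% in the other 4 libraries with a value. The authors' deposited rMATS table, with 3887 retained introns of which 14.5% had a false discovery rate under 0.05, listed no intron that overlaps a member.

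Use of the inner acceptor of the 223-base intron was low. From junction reads it was 5%, 4.76% and 12.5% in the room air libraries, in the order of their numbers, and 0%, 0% and 10% in smoke replicates 1, 2 and 3. With exon reads added it was 5%, 9.09% and 12.5% in room air and 0%, 0% and 12.2% in smoke. The groups overlapped in both measures, because smoke replicate 3 lay within the room air values, and the adjusted p-values in limma were 0.526 and 0.524. The remaining event of Irak1 chose a 168-base intron over a 300-base one and stood at 100% in every library with a value except smoke replicate 2, at 90.9%. Without smoke replicate 3 these 3 events passed limma, with adjusted p-values of 0.0439, 0.0275 and 0.0216 in that order, but 1131 of all 10376 events then passed as well, and the last of them was left with 1 smoke library, which is assumed to vary like the others.

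**Figure D5:**
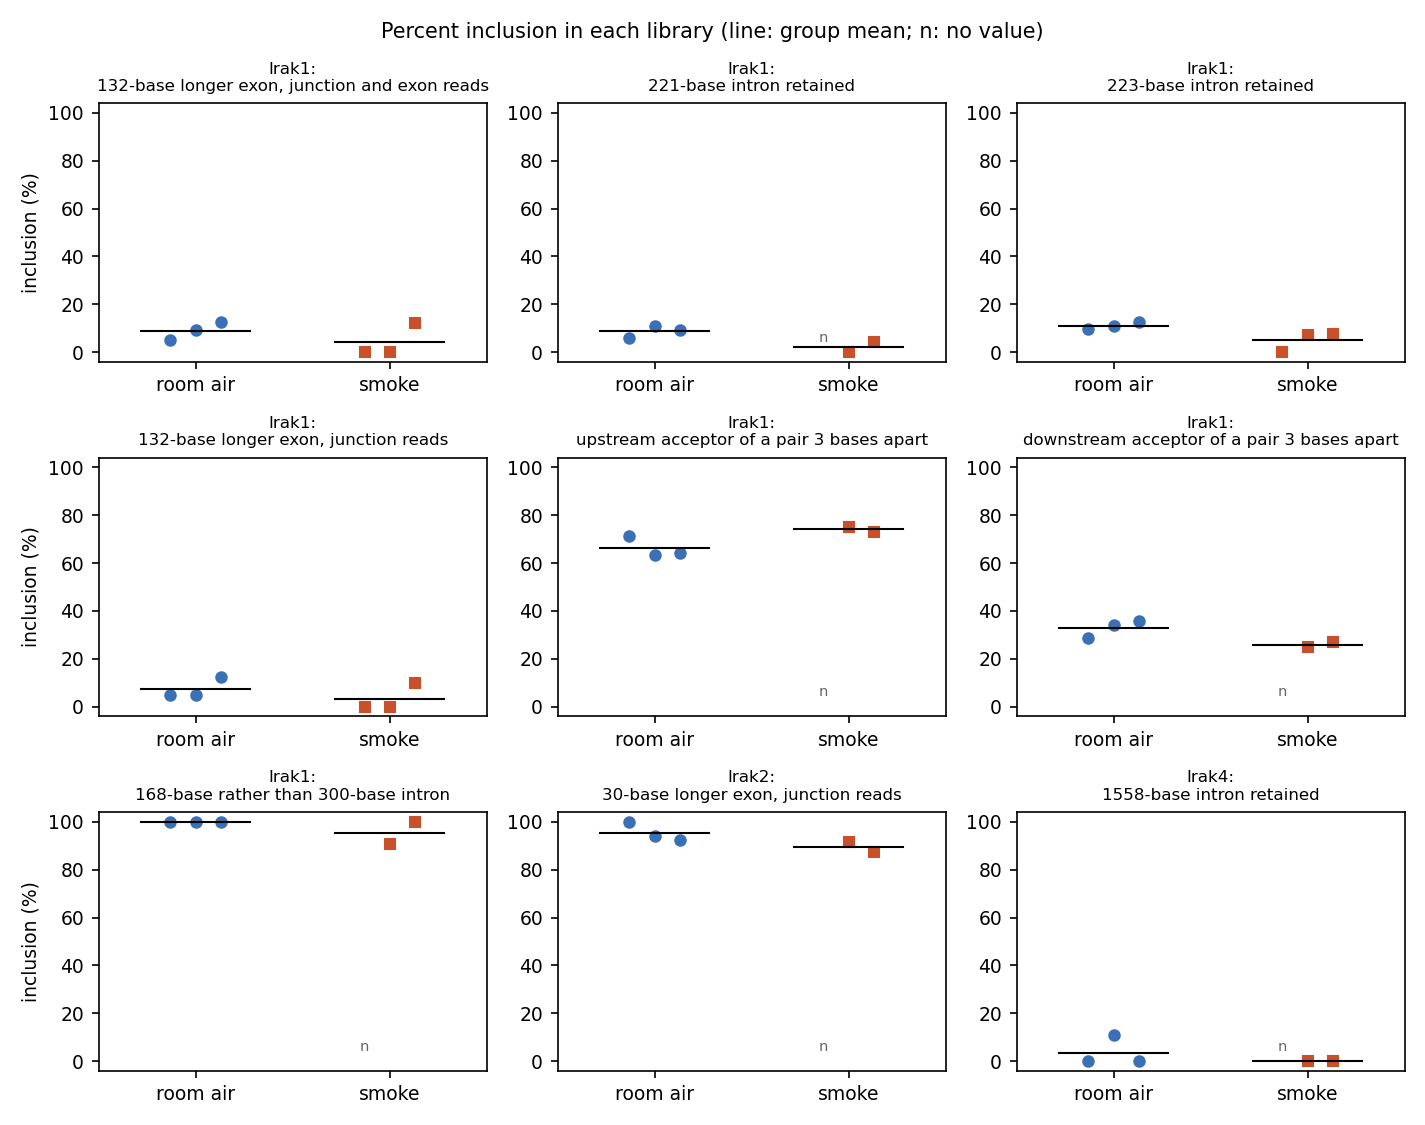
Percent inclusion of the 9 splicing events of Irak1, Irak2 and Irak4 in each library, with circles for room air and squares for cigarette smoke, replicates 1 to 3 from left to right, lines for group means, and n where a library has no value. Smoke values of the 223-base and 221-base introns of Irak1 lie below the room air values, and smoke replicate 1 lacks a value in 6 of the 9 panels.

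The 95% intervals of the differences, from limma on percentages and without adjustment for the number of events, included 0 in 8 of the 9 events: for the Irak2 exon the interval ran from -13.4 to 1.64 percentage points, and for the 223-base Irak1 intron from -12.5 to 0.277. For the upstream tandem acceptor of Irak1 the interval, given above, lay above 0, and no event passed after adjustment on this scale either.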

How the data were processed

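RNA of 6 macrophage libraries, 3 per group, was sequenced with a directional kit, per the labels' protocols. The authors used STAR, DESeq2, SAMtools 1.9 and bedtools 2.27.1 with the build mm10, per the submitters' processing notes; how reads were counted is not given in the sources used here. The authors deposited a gene table with size-factor-normalized mean signal per group, the log2 fold change with its standard error, the Wald score and p-values with and without adjustment. The deposited file's header marks the fold change as MAP, the authors' DESeq2 term for a shrunken estimate, and whether it was shrunk is not given in the sources used here. Its overall mean and size factors pool 24 libraries, of which 18 are not analysed here. No counts per library were used, so the depth is unknown and no floor for low values can be given. The authors also deposited percent inclusion per library from JuncBASE with p-values, and an rMATS table of retained introns with p-values and inclusion fractions, whose 6 columns of values per sample were not used.

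The members and gene lists were chosen with earlier results of these data known. Calls are the authors' adjusted p under 0.05. The 95% intervals come from the authors' standard errors. Percent inclusion was tested with limma 3.58.1 (R 4.3.3) on log2 odds with 1 percentage point added, over the 10376 events with at least 2 values per group, with Benjamini-Hochberg adjustment. The trend with GC content and length was removed by natural splines with 4 degrees of freedom, weighted by the inverse squared standard error (statsmodels 0.14.6, patsy 1.0.2). Both steps were tried on simulated data with normally distributed noise, with a straight-line trend in GC content and log length for the splines. For limma every simulated library had a value. Most member events lack a value, and many hold values at the ends of the scale. The simulation cannot show how limma does on such events. Gene names, positions and sequences are from GENCODE M21 on GRCm38, the assembly also called mm10. Of the pathway list, the text names the genes called and, per role, those with the highest counts and the largest log2 fold change among those averaging 50 normalized counts or more. Alternatives were other filters and thresholds, the removed trend, centring, other transformations, each library left out and a replicate block; retention over 5 libraries and levels per kilobase of coding transcript were added after seeing the data.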

Additional observations from a re-analysis of the deposited data

How the results depend on the processing

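The count of members called fell from 1 to 0 with the GC content and length trend removed, without the low-count filter, at an adjusted p under 0.01 and with a 1.5-fold minimum, and stayed at 1 among genes averaging 50 normalized counts or more and at an adjusted p under 0.1. For the pathway list the 5 calls became 0, 3, 2 and 2 in the same order, 4 among genes averaging 50 normalized counts or more and 9 at an adjusted p under 0.1. The log2 value of Tirap turned from 0.04 to -0.0090 as the ratio of group means, and that of Ticam2 from -0.07 to 0.0597 with the trend removed, both without a call. Over all splicing events limma called 0, but 241 with 0.1 added, 5 on untransformed percentages, 23 over events with a value in all 6 libraries and 0 to 1131 when 1 library was left out, and 431 passed the authors' unadjusted p under 0.05. Among member events the range was 0 to 3 when 1 library was left out (3 without smoke replicate 3), and no other alternative gave a call; of 105 event values 102 kept their side of the threshold. The retention difference of the 223-base Irak1 intron ranged from -7.47 to -3.63 percentage points when 1 library was left out. Same-numbered libraries did not deviate together over 5933 events (r from -0.0888 to 0.0177), and with the replicate number as a block 0 events were called. The depth behind each percentage is unknown, and many values may rest on few reads. The cause of these changes was not tested.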

Other observations

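A splicing event whose coordinates reach into Irak3 was on the opposite strand, where Tmbim4 lies, and so was not counted with the members. It is an alternative first exon (chr10:120201587-120215540) and the groups overlapped: its inclusion was 100%, 90.9% and 93.1% in the room air libraries, and in smoke it was 100%, 100% and 96.6%, in the order of replicates 1, 2 and 3. The deposited annotation of assembled transcripts held 14 models of Irak2, beside 9 in GENCODE M21, and 16 of Irak1, beside 22. All 18 annotated introns of Irak2 and all 28 of Irak1 were also in the assembled models, together with 16 and 14 that the annotation used here does not hold. No reads were used here that would show which of these were spliced out in which library.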
